A study of Mus musculus with 13 samples.

Results

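The genes described here encode 10 proteins stored in the granules of neutrophils, followed in femoral bone marrow after blood loss. They were chosen by name and sorted by the granule class that holds the protein, into 4 genes of primary granules (Mpo, Elane, Prtn3 and Ctsg), 4 of secondary granules (Ltf, Camp, Ngp and Lcn2) and 2 of tertiary granules (Mmp8 and Mmp9). Each was measured by 1 probe set annotated to that gene alone, and they are 10 of the 19938 genes measured. RNA of 13 marrow samples was measured, each on its own Affymetrix Mouse Gene 1.0 ST array. All samples came from male C57BL/6 mice aged 6 weeks on standard chow, with no mutation or transgene named. In 3 of them, the controls, marrow was taken at baseline, and the labels used here name neither a sham puncture nor the hour of collection. The others had lost 500 µL of blood by retro-orbital puncture before the femurs were taken, with 1 sample at 4 h after it, 3 at 9 h, and 2 each at 12, 15 and 48 h. The labels do not say whether the samples of a group came from separate animals, so a p-value here rests on the variation among these samples, which may be technical variation alone.

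Neutrophils load their granules in waves as they mature in the marrow. Promyelocytes make the proteins of primary (azurophil) granules, myelocytes and metamyelocytes those of secondary (specific) granules, and band cells those of tertiary (gelatinase) granules, so a granule transcript marks the stage that makes it rather than the mature cell that carries the protein. Transcription of the early class depends on PU.1, MYB and C/EBPα, and that of the later classes on C/EBPε. The question put to the data was whether the 3 classes moved together or apart after blood loss, which drives the marrow toward red cell production. Mmp8 (neutrophil collagenase) is placed by many authors in secondary granules. It is kept with Mmp9 here because the classes were given that way.

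The title numbers of the samples fall into a larger run of 10 arrays and a smaller run of 3, which holds 1 control and 2 samples at 9 h. The median deposited log2 level of an array lay between 6.98 and 7.03 in the larger run and between 7.77 and 7.80 in the smaller, so levels were compared within a run only. Fold changes come from 1 fit to all 13 arrays with a term for the run. They can therefore differ from differences of the larger-run levels listed. For Ctsg at 48 h the larger-run difference was −0.43 and the fitted value −0.38. In the smaller run 62.3% of probe sets repeated a value on 2 or 3 of its arrays. Of the granule genes, Elane had 1 value on all 3 arrays there, Ngp and Lcn2 had 2 values, and the other 7 had 3. With so few arrays, their number sets the precision of what follows. Marker lists of blood lineages went with the tissue label. All 9 measured erythroid, 7 of 8 B-lineage, all 4 megakaryocyte, 14 of 16 mature neutrophil and all 6 early granulocyte genes lay above the median of every array. This check does not exclude RNA of other tissues. Small intestine and muscle markers were high on the 4 h array, and liver markers on both 48 h arrays, as given below. The larger-run controls also had higher intestine markers than the samples at 9, 12 and 15 h, with sums of 9.77 to 9.95 against 8.75 to 8.94. For the mean of those times, 5 of 10 intestine markers passed as lower in limma, where 0.787% of all genes passed in either direction. In the smaller run, a 9 h array had a summed liver level of 10.51, against 9.63 in its control. The part of these markers in the granule values was not tested.

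The promoters of the primary granule genes are shown because the class is defined by when its genes are switched on, and because 4 short windows let a reader see what they share. Each window holds the 250 bases before the start of the gene, on the gene's own strand, from RefSeq on GRCm38.p6. The windows are chr11:87793534-87793783 on the plus strand for Mpo, chr10:79886062-79886311 on the plus strand for Elane, chr10:79879417-79879666 on the plus strand for Prtn3 and chr14:56102575-56102824 on the minus strand for Ctsg. Prtn3 and Elane are neighbours on chromosome 10. Capitals mark AGGAAGT, a core sequence that PU.1 can bind.
Mpo: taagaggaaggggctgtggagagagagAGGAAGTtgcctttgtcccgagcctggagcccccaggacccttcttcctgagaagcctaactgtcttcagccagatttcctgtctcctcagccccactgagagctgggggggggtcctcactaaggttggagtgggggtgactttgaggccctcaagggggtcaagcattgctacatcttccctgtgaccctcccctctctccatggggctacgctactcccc
Elane: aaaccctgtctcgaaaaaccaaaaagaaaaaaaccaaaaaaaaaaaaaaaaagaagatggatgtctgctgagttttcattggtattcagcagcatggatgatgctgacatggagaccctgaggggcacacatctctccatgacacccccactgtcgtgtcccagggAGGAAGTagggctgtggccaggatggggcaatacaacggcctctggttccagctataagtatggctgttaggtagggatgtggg
Prtn3: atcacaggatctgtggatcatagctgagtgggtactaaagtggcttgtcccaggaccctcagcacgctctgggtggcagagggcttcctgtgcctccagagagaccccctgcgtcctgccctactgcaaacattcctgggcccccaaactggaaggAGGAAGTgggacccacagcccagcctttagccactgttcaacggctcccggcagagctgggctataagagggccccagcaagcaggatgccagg
Ctsg: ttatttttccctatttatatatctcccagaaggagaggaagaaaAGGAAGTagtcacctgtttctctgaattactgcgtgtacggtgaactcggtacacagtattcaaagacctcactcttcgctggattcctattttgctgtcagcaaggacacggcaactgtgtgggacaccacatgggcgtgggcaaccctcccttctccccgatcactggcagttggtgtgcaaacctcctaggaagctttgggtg
AGGAAGT stood on the gene's own strand in 4 of 4 primary granule windows, with its first base 223 bases before the start of Mpo, 84 before Elane, 94 before Prtn3 and 206 before Ctsg. Searched on both strands, the same letters occurred in 7.69% of all 32851 RefSeq windows of this length, in 0 of 4 secondary granule windows and, on the opposite strand, in that of Mmp8. A window for Mmp9 was not used here. The motifs were chosen after the sequences had been read, so the counts are a description and name no bound site.

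The secondary granule windows were searched for TTNNGCAA, which holds the outer bases of the sequence that C/EBP proteins bind. It was present in 3 of the 4, those of Ltf (chr9:111019042-111019291, plus strand), Ngp (chr9:110419558-110419807, plus strand) and Lcn2 (chr2:32387740-32387989, minus strand), shown here with the match in capitals.
Ltf: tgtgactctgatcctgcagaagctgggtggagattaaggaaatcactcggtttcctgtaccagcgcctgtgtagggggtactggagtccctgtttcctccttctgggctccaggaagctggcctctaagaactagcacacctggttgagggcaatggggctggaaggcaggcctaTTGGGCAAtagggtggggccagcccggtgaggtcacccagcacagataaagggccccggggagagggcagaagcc
Ngp: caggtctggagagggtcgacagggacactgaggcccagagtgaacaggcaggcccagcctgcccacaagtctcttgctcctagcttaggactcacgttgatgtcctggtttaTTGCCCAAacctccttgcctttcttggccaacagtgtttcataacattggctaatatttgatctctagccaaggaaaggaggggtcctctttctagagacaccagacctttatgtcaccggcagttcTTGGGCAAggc
Lcn2: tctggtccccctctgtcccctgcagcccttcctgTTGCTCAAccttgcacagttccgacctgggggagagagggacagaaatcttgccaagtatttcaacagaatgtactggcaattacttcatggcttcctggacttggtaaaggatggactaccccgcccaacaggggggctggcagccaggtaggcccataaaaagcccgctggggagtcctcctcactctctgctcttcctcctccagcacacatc
The match lay on the gene's own strand 75 bases before the start of Ltf, on the own strand 11 bases and on the opposite strand 138 bases before Ngp, and on the opposite strand 216 bases before Lcn2. Neither Camp nor any of the 4 primary granule windows held it, while Mmp8 held it on the opposite strand. Among all windows, 9.56% held it on either strand. Another motif, AACNG, a core that MYB can bind, was in all 9 windows searched and in 74.2% of windows genome-wide, so it separates nothing here. Matches of different motifs overlapped once in the 9 windows, where AACNG and TTNNGCAA shared 2 bases before Lcn2.

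The log2 levels of the 10 probe sets in the larger run lay between 11.36 and 13.86, on arrays whose values ran between 2.36 and 14.57. A level depends on the probe set as well as on the transcript, so no gene is set against another by level.

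At 48 h after phlebotomy the 4 primary granule transcripts lay below both controls of their run. At 9, 12 and 15 h together the class had a median fold change near 0, but its genes were split. Mpo (−0.08) and Elane (−0.05) lay below 0, and Prtn3 (0.04) and Ctsg (0.04) above it. No granule gene passed an adjusted p of 0.05 in limma at any time, so the values at 48 h are described and not called changes. Mpo, the myeloperoxidase that makes hypochlorous acid, had log2 levels in the larger run of 12.86 and 12.86 in the controls, 12.80 at 4 h, 12.80 at 9 h, 12.71 and 12.79 at 12 h, 12.81 and 12.85 at 15 h, and 12.67 and 12.74 at 48 h. The controls differed by 0.0026, and every sample of the run after phlebotomy lay below both. The highest of these was a 15 h sample at 12.8512, against a lower control of 12.8551. A 12 h sample lay between the 48 h samples. The fold change at 48 h was log2 −0.16 ± 0.07 (SE; limma adjusted p = 0.333, unadjusted p = 0.0412), which is 0.896 of the control level.

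Elane, neutrophil elastase, a serine protease, had levels of 13.27 and 13.30 in the controls, 13.19 at 4 h, 13.18 at 9 h, 13.24 and 13.21 at 12 h, 13.19 and 13.23 at 15 h, and 13.03 and 13.09 at 48 h. Every sample of the run after phlebotomy lay below both controls, the 48 h samples were the lowest, and the gap between the higher of them and the lower control was 0.19. At 48 h the fold change was −0.21 ± 0.07 (limma adjusted p = 0.202, unadjusted p = 0.0104). Prtn3, proteinase 3, its neighbour and close relative, had 11.72 and 11.56 in the controls, 11.82 at 4 h, 11.64 at 9 h, 11.87 and 11.58 at 12 h, 11.68 and 11.73 at 15 h, and 11.36 and 11.39 at 48 h. The 2 samples at 48 h were again the lowest of the run, 0.16 or more below every control, and every earlier sample lay within or above the span of the controls. Its fold change at 48 h was −0.27 ± 0.09 (limma adjusted p = 0.247, unadjusted p = 0.0172).

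Ctsg, cathepsin G, another serine protease of the same granules, had the widest spread of the 4. Its levels were 12.40 and 12.01 in the controls, 12.34 at 4 h, 11.96 at 9 h, 12.43 and 12.20 at 12 h, 12.21 and 12.13 at 15 h, and 11.71 and 11.83 at 48 h. The 48 h samples were the lowest of the run, but the controls stood 0.39 apart, so the size of the difference rests on which control it is taken from. The fold change at 48 h was −0.38 ± 0.13 (limma adjusted p = 0.233, unadjusted p = 0.0148), 0.770 of the control level. It was −0.20 without control replicate 1 and −0.48 without control replicate 2.

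**Figure D1:**
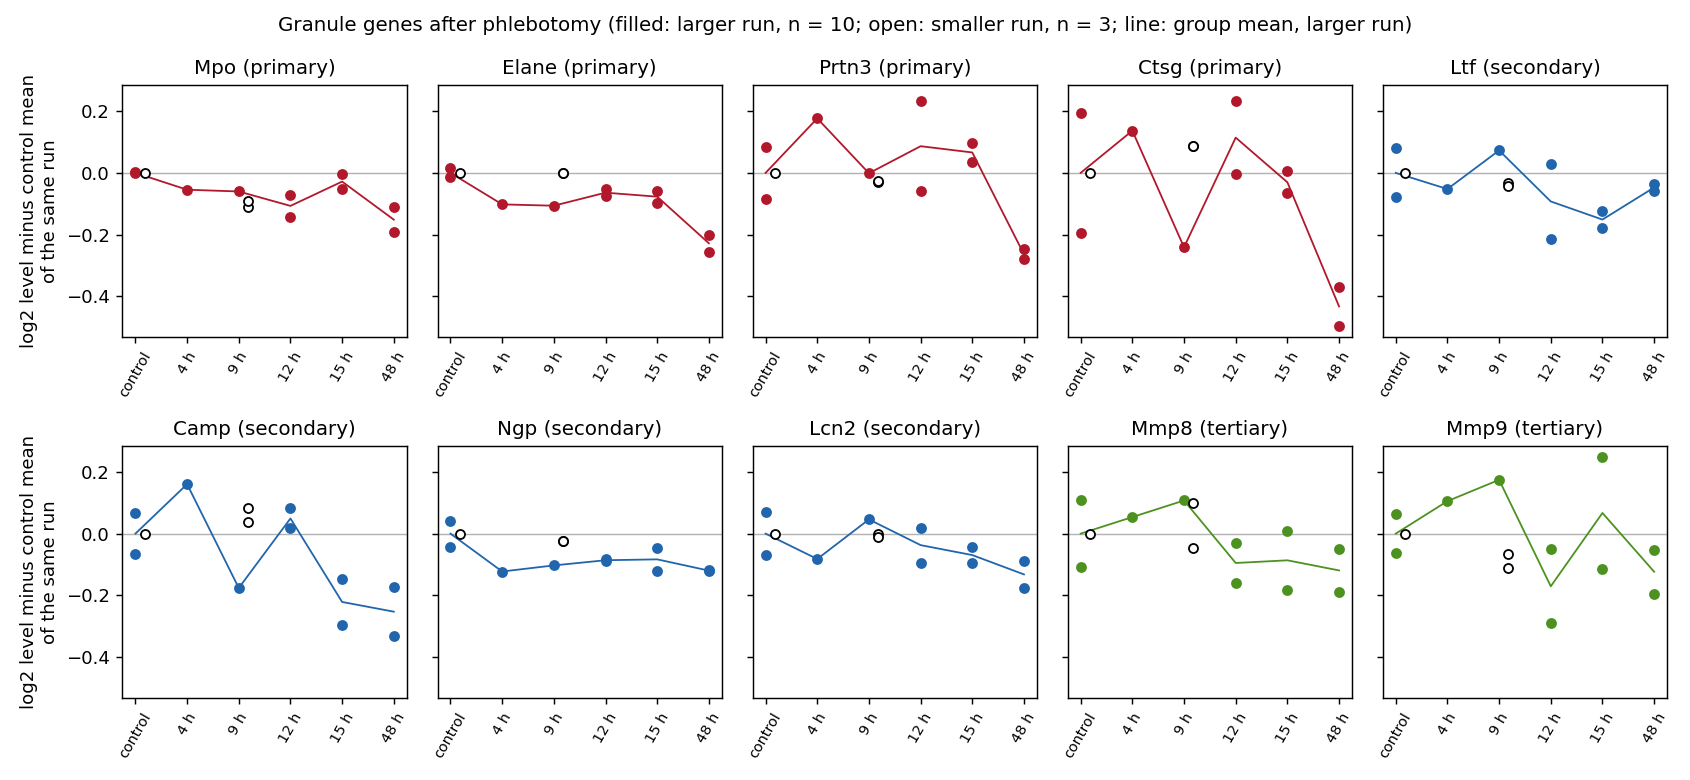
Log2 level of each granule gene on each array minus the control mean of the same run, by group; filled points are the larger run, open points the smaller run, and lines join the group means of the larger run. At 48 h all 4 primary granule genes (red) lie below both controls, and the 2 tertiary granule genes (green) overlap them.

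The secondary granule genes had a smaller median difference at 48 h than the primary genes, −0.12 against −0.24. Gene by gene the classes overlapped, with Camp at −0.21 and the primary genes Mpo and Elane at −0.16 and −0.21. Ltf, lactoferrin, which binds iron, had levels of 12.54 and 12.51 at 48 h, against 12.49 and 12.65 in the controls, and the groups overlapped. Camp, the cathelicidin precursor of an antimicrobial peptide, had 12.98 and 13.13 at 48 h, against 13.37 and 13.24 in the controls. Both 48 h values lay below both controls, as did the 15 h values of 13.16 and 13.01, whereas the 12 h values of 13.39 and 13.32 did not. At 48 h the fold change of Camp was −0.21 ± 0.09 (limma adjusted p = 0.338, unadjusted p = 0.0433), and at 15 h it was −0.18 ± 0.09 (limma adjusted p = 0.445).

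Ngp, the neutrophilic granule protein, a relative of the cathelicidins known from mouse, had 13.59 and 13.59 at 48 h, against 13.67 and 13.75 in the controls. Lcn2, lipocalin 2, which binds bacterial siderophores, had 13.61 and 13.70 at 48 h, against 13.72 and 13.86 in the controls. Both genes lay below the controls without overlap, Lcn2 by a gap of 0.02 only, while samples at 15 h overlapped the 48 h values. The fold changes were −0.11 ± 0.07 for Ngp and −0.14 ± 0.08 for Lcn2, with limma adjusted p of 0.523 and 0.436, and −0.07 ± 0.09 for Ltf, with 0.792.

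The tertiary granule genes overlapped the controls at 48 h. Mmp8 had 12.11 and 12.25 at 48 h, against 12.19 and 12.41 in the controls. Mmp9, gelatinase B, which cleaves denatured collagen and type IV collagen, had 11.72 and 11.86 at 48 h, against 11.98 and 11.85 in the controls. Both overlapped their controls, and Mmp9 spanned 11.80 to 12.16 within the 15 h pair. The fold changes at 48 h were −0.13 ± 0.10 for Mmp8 (limma adjusted p = 0.598) and −0.17 ± 0.13 for Mmp9 (limma adjusted p = 0.592). The pooled SD between samples of 1 group and run, on the log2 scale, was 0.04 for Mpo, 0.02 for Elane, 0.11 for Prtn3 and 0.15 for Ctsg, between 0.04 (Ngp) and 0.09 (Ltf) for the secondary granule genes, and 0.12 for Mmp8 and 0.15 for Mmp9.

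Set against the background, 0 of 10 granule genes passed an adjusted p of 0.05 at 48 h in limma, where 0.376% of all genes did. At an unadjusted p under 0.05, 5 of 10 were lower at 48 h, the 4 primary granule genes and Camp, where 4.68% of all genes were. In the larger run 7 of 10 granule genes had both 48 h samples below both controls, 4 of 4 primary, 3 of 4 secondary and 0 of 2 tertiary, beside 16.0% of all genes. The 10 genes share a cell lineage and the same arrays, so they are not independent counts. In bulk marrow, fewer cells of a maturation stage and less granule RNA per cell cannot be told apart.

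Over each class, the median log2 fold change at 48 h was −0.24 for primary, −0.12 for secondary and −0.15 for tertiary granule genes, against 0.01 over all genes. Leaving out 1 array at a time gave −0.26 to −0.20 for the primary, −0.15 to −0.08 for the secondary and −0.22 to −0.08 for the tertiary median, the lowest values without 48 h replicate 2, and the highest without control replicate 1 (primary), control replicate 2 (secondary) and 48 h replicate 1 (tertiary). All 10 were below 0, as were 46.5% of all genes. The primary class held 4 of the 5 genes with an unadjusted p under 0.05, but the difference between classes carries no test, since the genes were chosen by name with results known. On single arrays the mean shift of the primary genes from the control mean was −0.31 and −0.23 at 48 h, that of the secondary genes −0.17 and −0.11, and that of the tertiary genes −0.19 and −0.05.

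The distance between the primary and secondary classes within an array was −0.14 and −0.12 at 48 h. In the larger run it was 0.10 and −0.10 in the controls, 0.06 at 4 h, −0.06 at 9 h, 0.14 and −0.05 at 12 h, and 0.08 and 0.15 at 15 h. The 48 h samples therefore lay just beyond the lower control, by less than the controls lay from each other.

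**Figure D2:**
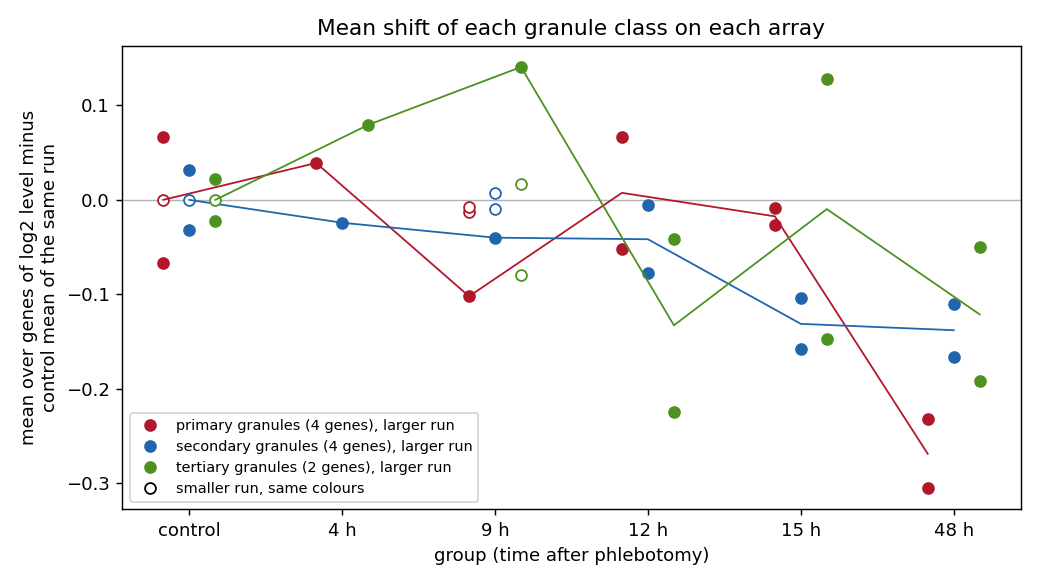
Mean over the genes of a granule class of the log2 level minus the control mean of the same run, for each array; filled points are the larger run with lines through group means, open points the smaller run. At 48 h the primary class is at −0.31 and −0.23, the secondary class at −0.17 and −0.11, and the tertiary class spans −0.19 to −0.05.

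The earlier times gave no direction common to all 10 genes. At 4 h, in a single sample, the fold changes of the 10 genes ran from −0.11 to 0.20, 5 below and 5 above 0, with 95% intervals reaching from −0.32 to 0.55. In limma 0 of 10 passed, with 0 at an unadjusted p under 0.05, where 1.99% of all genes passed and 15.2% had an unadjusted p under 0.05. Camp (0.20 ± 0.12), Ctsg (0.19 ± 0.16) and Prtn3 (0.17 ± 0.12) had the largest positive values, each with a spread taken from the other groups. On the same array 8 of 10 small intestine markers were higher than in the controls, with a median fold change of 4.27 and a summed level of 14.03, against 9.77 to 9.95 in the controls of the run. Skeletal muscle markers summed to 13.14, against 11.21 to 11.32. Their part in the values of the granule genes at 4 h was not tested.

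At 9 h the fold changes of the granule genes ran from −0.08 to 0.07 with 95% intervals from −0.34 to 0.29. All 4 primary granule genes lay below 0, with a median of −0.07, where 45.0% of all genes lay below 0. Again 0 of 10 passed in limma and 0 had an unadjusted p under 0.05, where the shares over all genes were 0.0953% and 6.12%. This is the one time held by both runs. The differences ran from −0.24 (Ctsg) to 0.17 (Mmp9) in the larger run and from −0.10 (Mpo) to 0.09 (Ctsg) in the smaller. Ctsg lay at −0.24 in the larger run, with 11.96 in 1 sample at 9 h, and at 0.09 in the smaller run, with 12.80 in both 9 h samples to 2 decimals, against a control of 12.71. Camp lay at −0.18 in the larger and 0.06 in the smaller run. Mpo lay on 1 side in both, at −0.06 and −0.10. The 9 h difference had opposite signs in the 2 runs for 5 genes, the same sign for 4, and was 0 in the smaller run for Elane, which had 13.46 on all 3 of its arrays. The term for a difference between the runs passed for 0 of 10 genes in limma (adjusted p between 0.897 and 0.995), with 0 at an unadjusted p under 0.05, where 0.0% of all genes passed and 6.09% had an unadjusted p under 0.05.

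At 12 h the fold changes ran from −0.21 for Mmp9 to 0.17 for Ctsg, and at 15 h from −0.18 for Camp to 0.06 for Prtn3. In limma 0 of 10 passed at 12 h and 0 at 15 h, with 0 at an unadjusted p under 0.05 at either time. Over all genes 0.105% passed at 12 h and 0.256% at 15 h, and 13.7% and 12.5% had an unadjusted p under 0.05. At 15 h the secondary class lay below 0 in all 4 genes, where 52.0% of all genes lay below 0, with a median of −0.12. The primary class had a median of −0.01, with 2 of 4 genes below 0. Without control replicate 2 all 4 primary genes lay below 0 at 15 h. Ltf, at 12.39 and 12.45 at 15 h against 12.49 and 12.65 in the controls, had the second lowest value there, −0.17 ± 0.09 (limma adjusted p = 0.463).

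The 3 middle times together, which give the smallest errors, bounded the shift of each granule gene averaged over them. They set no bound for a single time, where the 95% intervals were wider, reaching from −0.49 to 0.46 at 12 h. The mean of 9, 12 and 15 h differed from control by −0.09 to 0.04, and every 95% interval of the 10 genes lay between −0.25 and 0.25 on the log2 scale. In limma 0 of 10 passed (adjusted p from 0.588 to 0.908) and 0 had an unadjusted p under 0.05, where 0.787% of all genes passed and 12.0% had an unadjusted p under 0.05. The class medians were −0.01 for primary, −0.06 for secondary and −0.05 for tertiary granule genes. These intervals are for each gene alone and do not show that the levels were equal.

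Set directly against those middle times, the 48 h samples gave class medians of −0.23 for primary, −0.07 for secondary and −0.10 for tertiary granule genes. Leaving out 1 array at a time gave −0.26 to −0.21, −0.09 to −0.05 and −0.17 to −0.0306 for these medians, the tertiary extremes being those without 48 h replicate 2 and without 48 h replicate 1. The largest values were those of Ctsg, −0.42 ± 0.11 (limma adjusted p = 0.113, unadjusted p = 0.0037), and Prtn3, −0.31 ± 0.08 (limma adjusted p = 0.106, unadjusted p = 0.0032). Elane followed at −0.16 ± 0.06 (limma adjusted p = 0.232), and Mpo was at −0.08 ± 0.06. The 3 serine proteases and the peroxidase of the same granules thus had the same sign, and the differences in size among them were not tested. In limma 0 of 10 genes passed, where 0.978% of all genes did, and 3 of 10 were lower at an unadjusted p under 0.05, where 6.16% of all genes were. Without control replicate 1 Ctsg passed, at −0.39 with an adjusted p of 0.0352.

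In the larger run the 48 h samples lay below all 5 samples of 9, 12 and 15 h for Elane, Prtn3 and Ctsg, and for 0 of 4 secondary and 0 of 2 tertiary granule genes. Over all genes 6.11% showed that pattern. Mpo missed it through the 12 h sample at 12.71. Among the secondary granule genes Ltf lay at 0.02 ± 0.08 at 48 h against the middle times, Ngp at −0.04 ± 0.06, Lcn2 at −0.11 ± 0.07 and Camp at −0.16 ± 0.08.

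**Figure D3:**
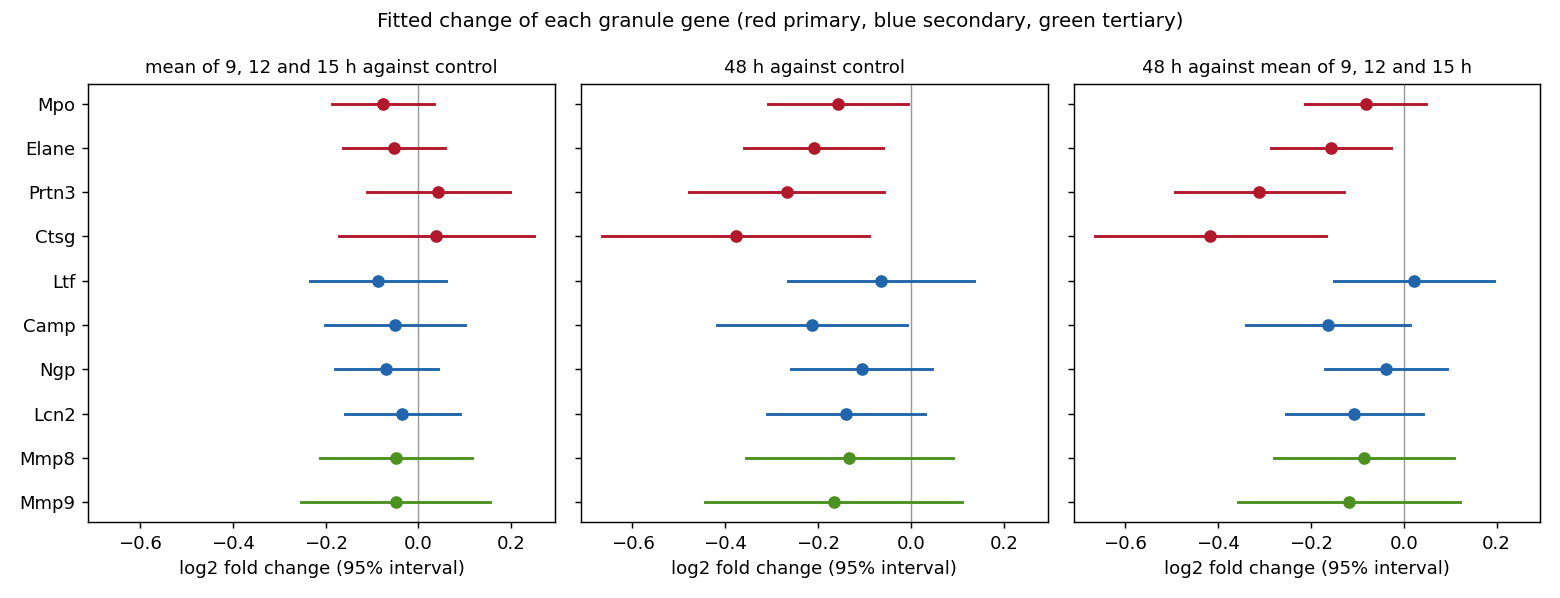
Log2 fold change of each granule gene with its 95% interval from the fit to all 13 arrays, in 3 panels that set the mean of the middle times (9, 12 and 15 h) against control, 48 h against control, and 48 h against the middle times. The intervals of all 10 genes include 0 in the first comparison, and those of Elane, Prtn3 and Ctsg lie below 0 in the other two.

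Proteins that process, pack or inhibit the primary granule proteases were measured as 5 genes, and in limma 0 passed in either direction at 48 h or at the middle times, with 2 and 0 at an unadjusted p under 0.05. Both of the 2 were lower. Of all genes 4.68% were lower and 9.31% higher at that level at 48 h, and 12.0% reached it in either direction at the middle times. All 5 lay below 0 at 48 h, where 46.5% of all genes did, with a median of −0.15. Ctsc, cathepsin C, the peptidase that activates elastase, proteinase 3 and cathepsin G, had 10.98 and 11.26 at 48 h, against 11.36 and 11.34 in the controls, a fold change of −0.25 ± 0.10 (limma adjusted p = 0.280). Both 48 h samples lay below both controls of the larger run, as in 16.0% of all genes, and one of them was the lowest of the run. Srgn, serglycin, the proteoglycan on which these proteases are stored, was at −0.15 ± 0.07 (limma adjusted p = 0.359). The protease inhibitors Slpi and Serpinb1a were at −0.02 ± 0.13 and −0.01 ± 0.13.

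Ranked by likeness, the gene whose levels most resembled the mean of the 4 primary granule genes over the 10 arrays of the larger run was Cst7, cystatin F, an inhibitor of cathepsin C (Pearson r = 0.987 among 11078 genes with a mean log2 level of at least 7). It had 9.33 and 9.38 at 48 h, against 9.62 and 9.50 in the controls, a fold change of −0.20 ± 0.07 (limma adjusted p = 0.261). Next came Iffo2 (r = 0.969), Kank2 (r = 0.961), Snx2 (r = 0.946) and Itgb5 (r = 0.944). For the mean of the secondary granule genes the nearest were Phyh (r = 0.905), Pnkd (r = 0.902), Bpgm (r = 0.895), Clip2 (r = 0.895) and Psenen (r = 0.890). These are the highest of many correlations over 10 arrays that share groups and hybridisation, and they describe these arrays only.

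Other products of secondary, tertiary and secretory granules and vesicles had a median near that of the secondary class. Of 13 measured, 0 passed in limma at 48 h and 0 at the middle times, where 0 and 2 had an unadjusted p under 0.05. Of all genes 4.68% were lower and 9.31% higher at that level at 48 h, and 12.0% reached it in either direction at the middle times. At 48 h the median was −0.09 and 12 of the 13 lay below 0, where 46.5% of all genes did. Lrg1 and Hp, haptoglobin, had the largest values at the middle times, 0.25 and 0.22 against control, and lay at −0.20 ± 0.14 and −0.20 ± 0.11 at 48 h. One gene of this list passed at 4 h, Olfm4, olfactomedin 4 of a subset of neutrophils and of intestinal crypts, named after its value was seen. Its level was 10.11 at 4 h, against 9.55 and 9.69 in the controls, a rise of 0.51 ± 0.10, on the array with the high intestine markers. At 12 h its levels were 9.94 and 9.88, a fold change of 0.31 ± 0.08 (limma adjusted p = 0.169). The intestine markers summed to 8.75 to 8.84 on those 12 h arrays, against 9.77 to 9.95 in the controls. The source of the Olfm4 values was not tested.

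The NADPH oxidase supplies the peroxide that myeloperoxidase uses. All 5 of its measured subunits lay below 0 at 48 h, where 46.5% of all genes did, with a median of −0.11. In limma 0 of them passed and 1 had an unadjusted p under 0.05. For this and the next lists, 4.68% of all genes were lower and 9.31% higher at that level at 48 h. Cybb, a membrane subunit, was at −0.09 ± 0.08 and Rac2, a small GTPase of the complex, at −0.05 ± 0.11. Of 9 transcription factors of granulocytes 0 passed in limma, 1 had an unadjusted p under 0.05, all 9 lay below 0 at 48 h and the median was −0.12. Irf8, which favours monocytes, was at −0.18 ± 0.10 and Cebpd at −0.13 ± 0.14. Of 14 measured receptors and 9 ligands of granulocytes 0 passed in limma at 48 h, with 0 and 1 at an unadjusted p under 0.05 and medians of −0.12 and −0.03. Below 0 at 48 h lay 13 of the receptors and 6 of the ligands. The largest values among the ligands at the middle times were those of Il1b, interleukin 1β, at 0.54, and of Cxcl2, a chemokine that attracts neutrophils, at −0.20, with limma adjusted p of 0.281 and 0.375. Among the receptors they were those of Il1r2, a decoy receptor of interleukin 1, at 0.37, and of Tlr4, the endotoxin receptor, at 0.16, with 0.303 and 0.527. At 48 h these 4 genes lay at 0.02, −0.03, −0.05 and −0.16.

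The lists of marrow cell types are given for 48 h beside 4.68% of all genes lower and 9.31% higher at an unadjusted p under 0.05. Of all genes 46.5% lay below 0 at 48 h. At 48 h 5 of the 6 early granulocyte genes lay below 0, with a median of −0.19. Fcnb, ficolin B, was at −0.22 ± 0.09, and Kit, the stem cell factor receptor of progenitors and mast cells, at 0.04 ± 0.09. At the middle times Fcnb was at −0.20 and Kit at −0.24. At 48 h in limma 0 of them passed and 3 had an unadjusted p under 0.05. Their summed level was 12.99 to 13.12, against 13.22 to 13.31 in the controls. Of the 16 mature neutrophil genes 15 lay below 0, with a median of −0.09 (0 passed in limma, 2 at an unadjusted p under 0.05). They summed to 15.37 to 15.51, against 15.48 to 15.55. Clec4d and the chemokine Ccl6, with the largest values of that list at the middle times (0.40 and 0.19), lay at −0.02 ± 0.24 and −0.09 ± 0.18 at 48 h. All 10 monocyte and macrophage genes lay below 0 (median −0.16, 0 passed in limma, 4 at an unadjusted p under 0.05), summing to 13.79 to 13.99, against 14.06 to 14.18. Klf4 was at −0.40 ± 0.14 and F13a1 at −0.14 ± 0.13. All 6 basophil and mast cell genes lay below 0 as well (median −0.40, 0 passed in limma, 4 at an unadjusted p under 0.05), with Mcpt8, a basophil protease, at −0.50 ± 0.11 (limma adjusted p = 0.0883) and Prss34 at −0.41 ± 0.10 (limma adjusted p = 0.141). They summed to 11.48 to 11.67, against 11.91 to 11.98.

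In the opposite direction, all 9 measured erythroid genes lay above 0 at 48 h (median 0.31, 0 passed in limma, 4 at an unadjusted p under 0.05), with a summed level of 15.39 to 15.50, against 15.03 to 15.42 in the controls. At the middle times 6 of the 9 lay below 0 and the median was −0.09, while 1 gene passed, Tfrc, the transferrin receptor, with a rise of 0.46 (limma adjusted p = 0.0453). The other lists had medians at 48 h of 0.06 for 7 eosinophil, −0.27 for 8 B-lineage, −0.25 for 8 T and NK cell, −0.01 for 4 megakaryocyte and −0.34 for 8 bone and stroma genes, each with 0 past the threshold in limma and with 1, 4, 3, 0 and 1 at an unadjusted p under 0.05. In that order 3, 7, 8, 2 and 8 genes of these lists lay below 0. Their members chosen by size at the middle times lay at 48 h at −0.13 (Ccr3) and 0.14 (Epx) for eosinophils, −0.68 (Igll1) and −0.36 (Ebf1) for the B lineage, −0.49 (Ncr1) and −0.10 (Klrd1) for T and NK cells, and −0.06 (Dmp1) and −0.58 (Col1a1) for bone and stroma. Gp9, a platelet glycoprotein, fell by 0.34 at the middle times (limma adjusted p = 0.0314). Liver markers were higher on both 48 h arrays. Of 7 measured 5 passed, with a median of 1.53 and a summed level of 11.80 to 12.17, against 8.86 to 9.00 in the controls, and Alb, albumin, had 11.69 and 11.44, against 6.87 and 7.23. Fgg, Ttr and Ahsg rose by 1.997, 1.47 and 2.18 on the log2 scale. The small intestine markers summed to 8.88 to 9.30 at 48 h, against 9.77 to 9.95, with 1 of 10 higher and 3 lower past the threshold (Reg3g at −2.37, Fabp2 at −2.20 and Reg3b at −2.64), and the muscle markers to 10.24 to 12.33, against 11.21 to 11.32, with 0 past it in limma, 0 at an unadjusted p under 0.05, Tnnc2 at −0.58 ± 0.58 and Myh4 at −0.16 ± 0.57. Leaving out either 48 h array left the primary median at −0.22 or −0.26. The part of the erythroid, liver and other markers in the values of the granule genes at 48 h was not tested.

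**Figure D4:**
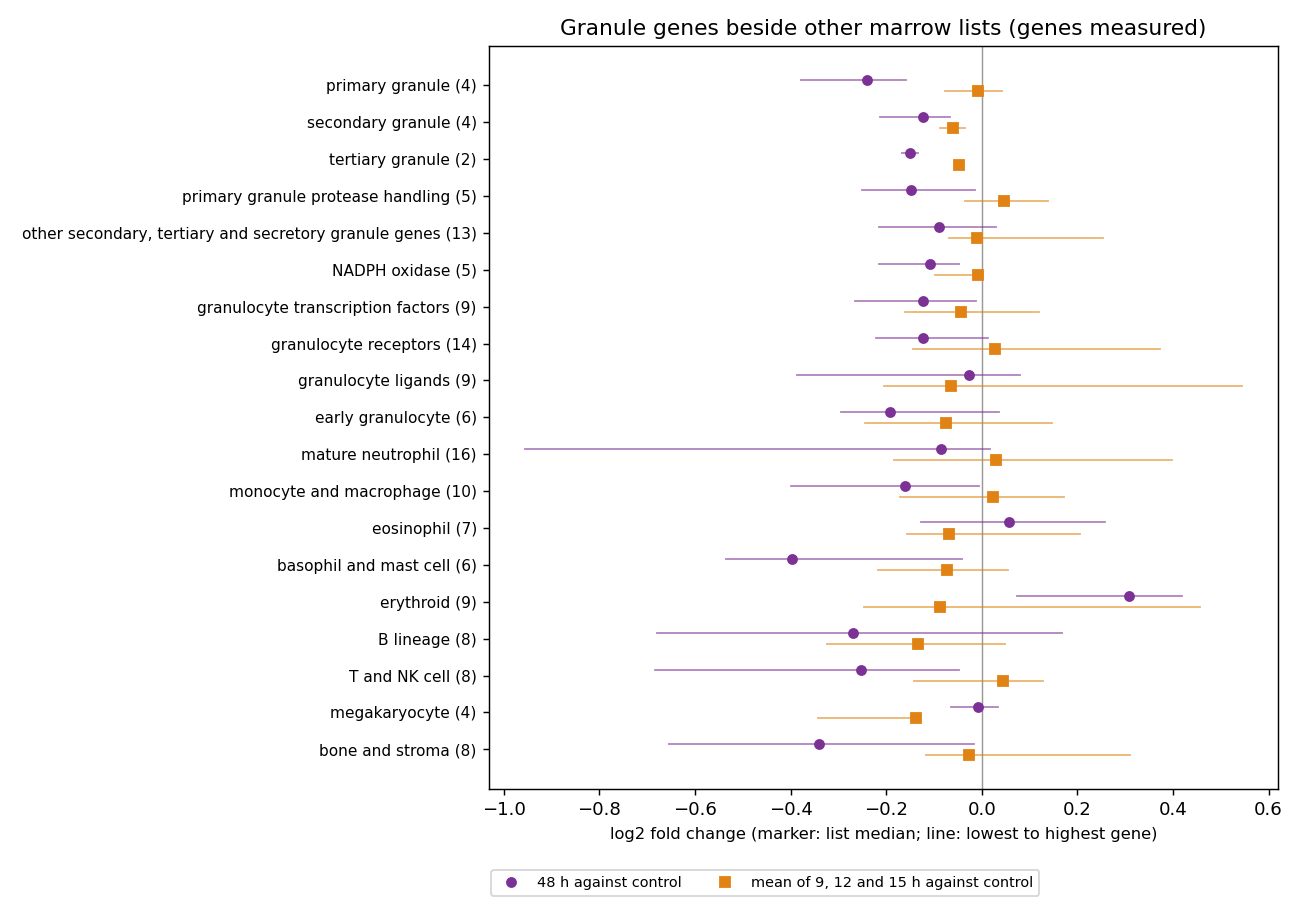
Median log2 fold change of each list (marker) with its lowest and highest gene (line), at 48 h against control (circles) and for the mean of the 3 middle times against control (squares), with the number of measured genes in brackets. At 48 h the primary granule median is −0.24, the secondary −0.12, the erythroid 0.31 and the basophil and mast cell −0.40.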

How the data were processed

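Total RNA of 13 femoral marrow samples was extracted with Trizol and purified on RNeasy columns, then hybridised to 1-colour Affymetrix Mouse Gene 1.0 ST arrays, per the labels' protocols. The deposited table holds 1 column of log2 levels per array, which the authors computed by RMA (submitters' processing notes). The RMA version, and which arrays were normalized together, are not given in the sources used here. Groups came from the time label, and no replicate number was taken to pair samples. Of 35557 probe sets, 21789 had 1 gene symbol in the platform annotation, 1621 several and 12147 none listed. Symbols were updated through Entrez identifiers for 21698, and the probe set with the highest mean stood for a gene, leaving 19938 genes. Some genes of the lists are not reported here.

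From these values 1 linear model was fitted with limma 3.58.1 in R 4.3.3 to all 13 arrays, with a mean for each of 6 groups and the run of title numbers as a fixed effect (6 residual and 4.62 prior degrees of freedom, eBayes, two-sided). There were 7 comparisons, 5 of single times and 1 of the averaged middle times (9, 12 and 15 h) with control, and 1 of 48 h with the middle times, with p adjusted by Benjamini-Hochberg over all genes and a threshold of 0.05. The lone 4 h sample took its spread from the remaining groups. Class values are medians or means with no test. The fit was also run on simulated data with independent errors and the same shift at every time after phlebotomy. Such data cannot check 48 h against the middle times or the repeated values of the smaller run. The outcome is not reported here. Summed levels are log2 of the summed linear values. Promoters came from the RefSeq table on GRCm38.p6. The members and lists were chosen with earlier results of these data known. Named were all 10 members, the members of other lists past the threshold at 48 h or the middle times (up to 3, by p) or else the 2 with the largest absolute fold change at the middle times, and the 5 most alike genes. Ctsc, Srgn, Alb and Olfm4 were named after their values were seen. Alternatives changed the run term, the arrays, the filter, the normalization and the moderation. Figures used matplotlib 3.10.9 in Python 3.11.15.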

Additional observations from a re-analysis of the deposited data

Results flagged for a closer look

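In the larger run Prtn3 lay above the mean of the 2 controls in each 15 h sample and below it in each 48 h sample, with mean log2 differences from the control mean of 0.0661 at 15 h and −0.2635 at 48 h. Camp lay above it in each 12 h sample (mean 0.0491) and below it in each 15 h sample (mean −0.2212) and each 48 h sample (mean −0.2527). Each group has 2 arrays here, and these differences between times were not tested.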

How the results depend on the processing

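With 0 of 10 granule genes past the threshold in limma in each of the 7 comparisons, all 22 alternatives at 4 h and all 23 at each of 9, 12, 15 and 48 h and for the mean of 9, 12 and 15 h also gave 0. For 48 h against that mean 22 of 23 gave 0, and leaving out single arrays gave 0 to 1 (Ctsg, without control replicate 1). At 48 h against control all 10 granule genes, of every class, lay below 0 in 23 of 23 alternatives. At 48 h against the middle times all 4 primary granule genes lay below 0 in 23 of 23. For that comparison no gene of any class changed sign in 20 of 23, and at most 1 did in the others. Signs were less stable elsewhere. At most 4 genes changed sign at 4 h, 6 at 9 h, and 3 each at 12 and 15 h. None changed in 18 of 22 alternatives at 4 h, and in 18, 21 and 15 of 23 at 9, 12 and 15 h. For the middle times against control at most 4 changed, and none did in 16 of 23. Without control replicate 2 all 4 primary genes lay below 0 there. Leaving out 1 array gave primary medians of −0.0587 to 0.0205 there. The alternative that moved the class medians most left out the run term, so that levels of both runs were mixed by construction. The medians for primary, secondary and tertiary genes then were −0.12, −0.24 and −0.13 at 4 h, 0.11, 0.12 and 0.24 at 9 h, −0.14, −0.20 and −0.34 at 12 h, −0.19, −0.26 and −0.22 at 15 h, −0.41, −0.30 and −0.33 at 48 h, and −0.34, −0.17 and −0.22 at 48 h against the middle times. With each array centred on its median, the 4 h medians were −0.0207 for primary and −0.16 for secondary genes. Quantile normalization within each run gave secondary medians of −0.0148 at 4 h and −0.0712 at 48 h. The cause of these 4 shifts was not tested. Leaving out single arrays gave medians of −0.14 to −0.0369 for secondary genes at 4 h, −0.0605 to 0.10 for primary and −0.10 to 0.0116 for secondary genes at 12 h, and −0.18 to 0.10 for tertiary genes at 15 h. Averaging a gene's probe sets changed nothing by construction, since each member has 1. No paired analysis was possible because the title numbers pair no samples and the replicate numbers follow accession order. Differences between classes were not tested, and the groups hold 1 to 3 arrays each.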
